A study of Mus musculus with 12 samples.

Results

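The comparison set 3 libraries of ETV4 knockout 4T1 cells against 3 libraries of control 4T1 cells, all cultured without added FGF. The 6 libraries were chosen by their labels from the 12 in the series, and the other 6 come from the same 2 cell populations given FGF10 and FGF2. Of 31017 gene symbols in the count table, 12079 passed a filter on low counts and were tested. 4T1 is a mouse mammary carcinoma line. Both groups were nucleofected with Cas9, the control cells with a control guide RNA and the knockout cells with a guide RNA against ETV4. Both were grown in 2% serum as 3D droplets of collagen I, which were digested with collagenase before polyA RNA was taken. Gels held either 1.2 mg/ml or 2.4 mg/ml of collagen, without a statement of which applies to a given library. The knockout library names share a tag, C39, that the labels do not explain. The labels leave unstated if these cells are a mixed population or descend from a single cell, and a difference between such a line and the control cells cannot be told apart from an effect of the lost gene. The labels name no separate cultures behind the replicates. The p-values therefore reflect variation among libraries, possibly technical, with the spread estimated over all 12 libraries of the series.

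ETV4 is an ETS transcription factor that, with ETV1 and ETV5, makes up the PEA3 family. These factors bind DNA sites with a GGAA core and are switched on by receptor tyrosine kinase signalling through the ERK kinases, including signalling from FGF receptors. In the mammary gland and other branching epithelia they act in outgrowth of the epithelium, and in carcinoma cells they have been linked to invasion and to matrix-degrading enzymes. A collagen I gel gives the cells a fibrous matrix to adhere to, contract and degrade.

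Etv4 RNA was still present in the knockout libraries. In CPM (read counts scaled to library size, with TMM factors), Etv4 (chromosome 11, 101769742 to 101785371 in mm10) stood at 168, 162 and 168 in the control libraries 1 to 3 and at 116, 159 and 116 in knockout libraries 1 to 3. All 3 knockout values lay below the control values, the second only just. The log2 fold change, knockout over control, was -0.35 ± 0.11 (SE, adjusted p = 0.0173), and without knockout replicate 2 it was -0.51. The call was lost without control replicate 1 (adjusted p = 0.0514) and without knockout replicate 1 or 3 (adjusted p = 0.0661 and 0.0667). A count over the whole gene does not show whether the reading frame is intact. With all libraries the change in Etv4 was close to the median of all tested genes of chromosome 11, and relative to that median it was 0.02 (adjusted p = 0.892). Without knockout replicate 2 Etv4 stood further down than its chromosome (-0.51 against a median of -0.404), and so it did in the libraries with FGF (-0.51 against -0.406); these 2 differences were not tested.

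The libraries held 18229429 to 21888600 counts. Knockout replicate 2 stood apart from its group. Between knockout replicates 1 and 3 the chi-square per degree of freedom was 3.49, against 74.3 and 73.1 between replicate 2 and the other two, and 3.34 to 5.67 among the controls. Principal component 1 (75.7% of the variance) separated the genotypes, and component 2 (14.6%) separated replicate 2 from the other knockout libraries. Across 11977 genes, the deviation of replicate 2 from the mean of replicates 1 and 3 had a Spearman correlation of -0.526 with the length of the longest transcript and of 0.51 with its GC content, over genes of a single library and so not over independent replicates. Ribosomal protein genes took 7.62% of its counts and 5.51% to 6.15% of the counts in the other 5 libraries. The part of length, GC content or handling in the results was not tested. Counts are given with and without this library, and named genes whose call changed without it are pointed out.

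**Figure D1:**
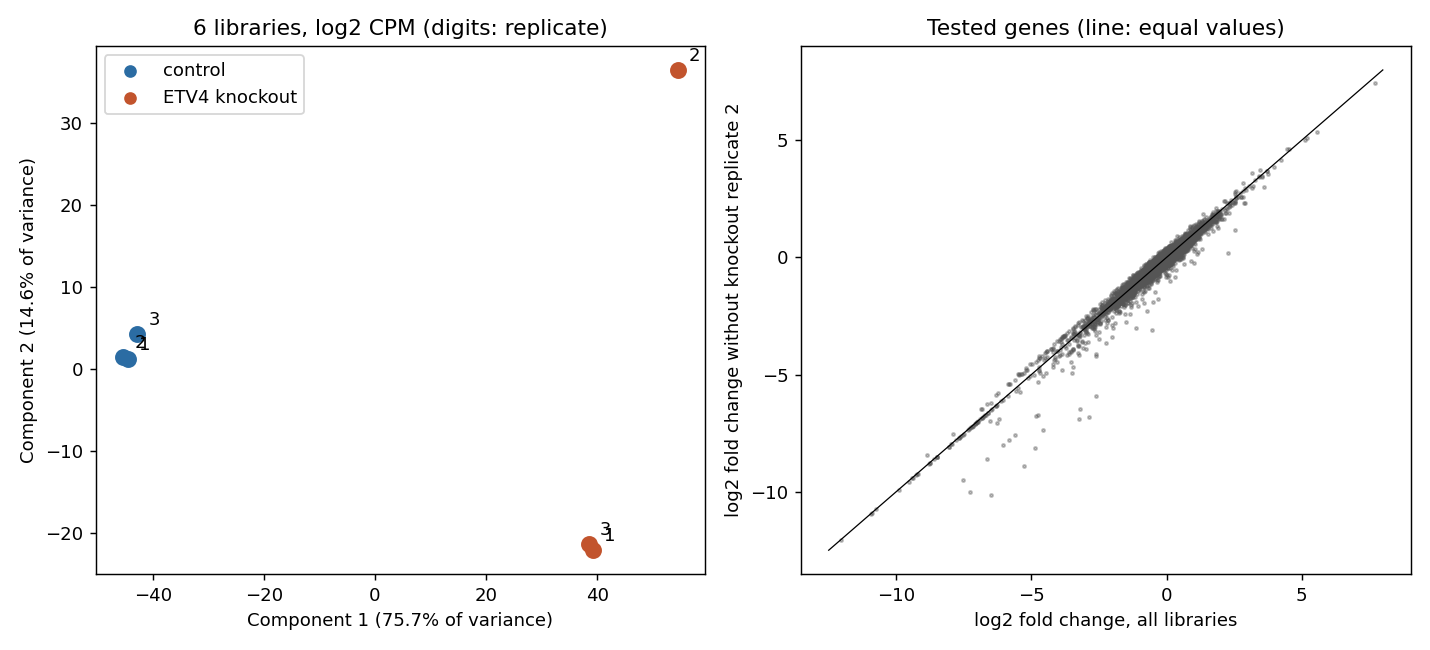
Left, the 6 libraries on the first and second principal components of log2 CPM, with the replicate number beside each point; the controls lie together, and knockout replicate 2 lies far from replicates 1 and 3 on the second component. Right, the log2 fold change of each tested gene with all libraries against the value without knockout replicate 2; most points lie along the line of equal values, and a few genes with large decreases lie well below it.

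Epithelial markers were abundant and markers of other cell types were low, while a mammary origin was not tested. Of 7 mammary epithelial markers 6 had counts, and Krt5 had none. The summed level was 4900 to 4990 CPM (here without TMM factors) in the control and 4210 to 5620 CPM in the knockout libraries. At an adjusted p under 0.05, 3 of these 6 were lower and 0 higher in knockout libraries, or 4 and 0 without knockout replicate 2. Of all genes tested, 23.3% were lower and 22.5% higher with all libraries. Of 9 fibroblast markers 5 had counts, summing to 10.1 to 12 CPM in control and 8.06 to 13.8 CPM in knockout libraries, nearly all of it Pdgfra, and Dcn, Lum, Thy1 and Pdgfrb were at 0. Of 9 macrophage and leukocyte markers 4 had counts, summing to 5.91 to 9.81 CPM and 9 to 10.5 CPM, and those at 0 included Tyrobp, Itgam, Cd3e and Adgre1. Endothelial markers summed to at most 0.514 CPM in any library.

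Of the tested genes 5533 (45.8%) differed between the genotypes, mostly by less than 2-fold, and the large changes were mainly decreases. With edgeR's quasi-likelihood test and a Benjamini-Hochberg adjusted p under 0.05, the knockout libraries had 2723 genes (22.5%) higher than in controls and 2810 (23.3%) lower. Without knockout replicate 2, 3212 (26.3%) were higher and 3455 (28.2%) lower. Of the genes called with all libraries, 2518 higher and 2707 lower genes were called in the same direction without that library, and 205 higher and 103 lower genes were not called. Genes called in the opposite direction numbered 0. The median absolute log2 fold change of a called gene was 0.545, and 4340 of the called genes (78.4%) changed by less than 2-fold. At least 2-fold higher were 298 genes (2.47%), and at least 2-fold lower 895 (7.41%); without knockout replicate 2 the counts were 285 (2.33%) and 926 (7.57%). At least 4-fold, 66 genes (0.546%) were higher and 419 (3.47%) lower. At least 16-fold, the counts were 7 higher and 140 lower (1.16%). In 6471 genes (53.6%) the 3 libraries of one genotype did not overlap those of the other.

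Genes were ranked by fold change if their log2 CPM averaged 1 or more over the 6 libraries. The largest decreases in this ranking came from several functions: membrane organisation, cell junctions, secretion and cell death. The limit left out genes with larger falls and almost no reads in knockout libraries, which are described further down. Cav1, which encodes caveolin-1, the structural protein of caveolae, stood at 38.5, 35 and 36.4 CPM in the controls and at 0.353, 0.06 and 0.467 CPM in the knockout libraries. Each control library was far above each knockout library, and the log2 fold change was -6.86 ± 0.26 (SE, adjusted p = 8.1e-10); without knockout replicate 2 it was -6.45. Rab25, a small GTPase of epithelial recycling endosomes, stood at 29.8, 29.8 and 29.5 CPM in the controls and 0.404, 0.779 and 0.0934 CPM in the knockout libraries (log2 fold change -6.19 ± 0.26 SE, adjusted p = 2.74e-09). Cldn7, a claudin of tight junctions and the lateral membrane, went from 179, 178 and 185 CPM to 3.28, 4.62 and 3.69 CPM (log2 fold change -5.55 ± 0.13 SE, adjusted p = 2.25e-11). The groups of both genes were widely separated, and their knockout values were low in all 3 libraries.

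Further down the same ranking came Casp12, a caspase gene, at 12.1, 14.6 and 13.8 CPM in controls and 0.252, 0.48 and 0.234 CPM in knockout libraries. Cp, which encodes the copper-carrying ferroxidase ceruloplasmin, had 209.5, 209.5 and 187 CPM in controls and 7.12, 7.25 and 8.78 CPM in knockout libraries (log2 fold change -4.71 ± 0.13 SE, adjusted p = 7.09e-11). Hhip, which encodes a membrane protein that binds and restrains hedgehog ligands, had 91.8, 92.7 and 87.2 CPM and 5.25, 2.7 and 4.39 CPM (log2 fold change -4.44 ± 0.20 SE, adjusted p = 3.66e-09). In each of these the lowest control was several-fold above the highest knockout library. The others of the 15 largest decreases were Rnase4, a secreted ribonuclease (-5.49), Rps6ka6, an S6 kinase of the RSK family (-5.13), Slc39a4, a zinc importer (-4.89), Sox15, a SOX transcription factor (-4.76), Spata13, a guanine nucleotide exchange factor (-4.71), Tubb2b, a beta-tubulin (-4.71), Trpm6, a magnesium channel (-4.21), Lgals3bp, a secreted galectin-3 binding protein (-4.19), and Esyt3, an extended synaptotagmin (-4.18), all as log2 fold changes. A call without knockout replicate 2 was a condition for all of them.

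Large increases were fewer, and they were ranked under the same limit on log2 CPM. The limit left out some genes that rose strongly at low levels. Among these were Pla2g4e (log2 fold change 4.53) and Gsta1 (log2 fold change 3.15), described further down. Tnxb, which encodes the matrix glycoprotein tenascin-X, stood at 0.376, 0.142 and 0.647 CPM in controls and 12.5, 16.3 and 14.3 CPM in knockout libraries, a log2 fold change of 5.20 ± 0.32 (SE, adjusted p = 5.77e-08). The controls were near 0 and every knockout library was above 12 CPM. Klk10, a kallikrein-related secreted protein, rose from 8.84, 7.04 and 6.08 CPM to 77, 95.5 and 80.1 CPM (log2 fold change 3.52 ± 0.14 SE, adjusted p = 1.31e-09). Cdh23, a cadherin known from the hair cells of the inner ear, rose from 1.32, 0.661 and 0.896 CPM to 9.84, 10.2 and 11.2 CPM (log2 fold change 3.43 ± 0.18 SE, adjusted p = 1.39e-08). Knockout replicate 2 was the highest of its group for Klk10 and in the middle for Cdh23.

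Cavin2, which encodes a protein of the caveolar coat, had 3.76, 4.2 and 4.73 CPM in controls and 45.6, 39.6 and 49.5 CPM in knockout libraries (log2 fold change 3.41 ± 0.13 SE, adjusted p = 1.1e-09). Fgfbp1, a secreted carrier that releases FGFs from the matrix, had 17.2, 14.8 and 17.1 CPM and 99.3, 114 and 96.3 CPM (log2 fold change 2.65 ± 0.091 SE, adjusted p = 4.84e-10). The knockout libraries were high in both genes. The 15 largest increases also included Pcsk6, a proprotein convertase (3.28), Anxa8, an annexin (3.19), Pgbd5, a gene derived from a transposase (3.04), Sqor, a mitochondrial sulfide oxidase (2.77), Mmp1b, a collagenase-like metalloproteinase (2.58), Map6, a microtubule stabiliser (2.52), Suox, sulfite oxidase (2.35), Bpifb4, a member of the BPI fold family (2.03), and Rtn4r, the Nogo receptor (2.0), all as log2 fold changes. For these 9, too, a call without knockout replicate 2 and the limit on log2 CPM were conditions.

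The libraries with FGF share no library with this comparison but come from the same cell populations, so they are not an independent test of the genotype. In them the genotypes were again separated for all 15 of the decreased and all 15 of the increased genes. These genes had been chosen for large changes without overlap. Without FGF 53.6% of all tested genes showed no overlap, and the share with FGF was not counted. Log2 fold changes with FGF ran from -7.29 to -4.17 for the decreased and from 1.12 to 5.20 for the increased genes. Cav1, for example, stood at 33.4, 32.4 and 38.1 CPM in the controls with FGF and at 0.421, 0.106 and 0.197 CPM in the knockout libraries with FGF.

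**Figure D2:**
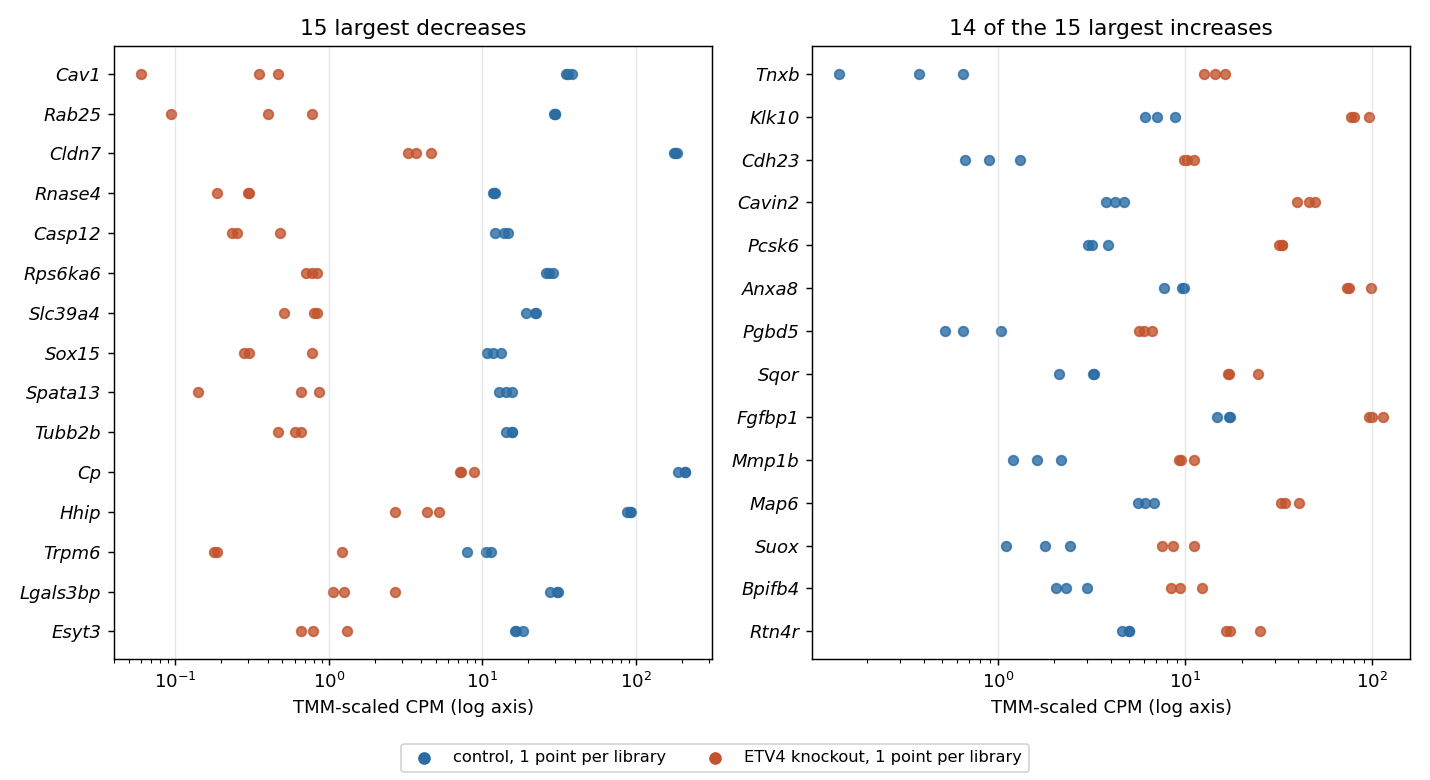
TMM-scaled CPM of the 15 genes with the largest decrease (left) and of 14 of the 15 with the largest increase (right), on log axes, with 1 point per library in blue for control and orange for knockout. The ranking took only genes whose log2 CPM averaged 1 or more, so some larger changes at lower levels are not shown. In each gene shown the points of the 2 groups are separated, which the choice of these genes required. Cav1 falls from above 35 CPM to under 0.5 CPM.

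The promoters of 3 of the largest decreases and 3 of the largest increases are shown because PEA3 factors bind sites with a GGAA core. Each line holds the 150 bases before 1 listed RefSeq start on the strand of the gene (GRCm38.p6, the mm10 assembly), 5′ to 3′. Each GGAA, or TTCC where it lies on the opposite strand, is in capitals. Cav1 and Cldn7 have 2 listed promoters each, of which only the first is shown and counted. The coordinates are chr6:17306185-17306334 (plus strand) for Cav1, chr3:88548280-88548429 (minus) for Rab25, chr11:69964629-69964778 (plus) for Cldn7, chr17:34670385-34670534 (plus) for Tnxb, chr7:43780904-43781053 (plus) for Klk10 and chr10:60696491-60696640 (minus) for Cdh23.
Cav1: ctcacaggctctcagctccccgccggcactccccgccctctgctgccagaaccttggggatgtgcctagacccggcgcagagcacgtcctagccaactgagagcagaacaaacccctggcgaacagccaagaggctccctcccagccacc
Rab25: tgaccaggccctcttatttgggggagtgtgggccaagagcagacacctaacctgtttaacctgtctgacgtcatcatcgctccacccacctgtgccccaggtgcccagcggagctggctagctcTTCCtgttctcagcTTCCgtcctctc
Cldn7: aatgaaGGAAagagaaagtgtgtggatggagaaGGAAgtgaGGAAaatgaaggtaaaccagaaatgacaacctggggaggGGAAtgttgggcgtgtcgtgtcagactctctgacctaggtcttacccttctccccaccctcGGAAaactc
Tnxb: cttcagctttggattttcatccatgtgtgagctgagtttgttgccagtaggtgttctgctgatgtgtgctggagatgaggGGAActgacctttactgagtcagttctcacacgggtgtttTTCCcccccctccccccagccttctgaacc
Klk10: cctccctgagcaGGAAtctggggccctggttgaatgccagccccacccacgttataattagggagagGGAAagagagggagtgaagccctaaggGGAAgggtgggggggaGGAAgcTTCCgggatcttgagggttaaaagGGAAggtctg
Cdh23: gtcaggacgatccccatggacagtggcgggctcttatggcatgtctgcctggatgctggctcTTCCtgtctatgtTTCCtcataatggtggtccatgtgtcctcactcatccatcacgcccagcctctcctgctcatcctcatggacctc
The Cav1 window had 0 such cores, the Rab25 window 2, Cldn7 5, Tnxb 2, Klk10 6 and Cdh23 2. Windows with 5 or more cores thus occurred among both the decreased and the increased genes. The longer ETS motif CCGGAAG was in the Klk10 window, and the AP-1 motif TGACTCA in that of Tnxb, on either strand.

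Over 300 bases, from 250 before to 50 after the start, 376 promoters of 298 genes at least 4-fold lower in knockout libraries held CCGGAAG, on either strand, in 5.85% of cases, and 60 promoters of 48 genes at least 4-fold higher held it in 5.0%. Among all 11916 promoters of the 9313 tested genes with an entry the share was 17.9%, and it was 8.86% among all 32851 promoters listed for the mouse. GC content was 56.5% for the lower, 56.4% for the higher and 60.9% for all tested genes. TGACTCA was in 5.85% of the promoters of lower and 11.7% of those of higher genes, the latter being 7 promoters, against 4.07% of all tested. The median number of GGAA cores was 3 for lower genes, 2.5 for higher genes and 3 for all tested. A match of letters is a description of the window and does not show binding.

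Some genes had no or almost no reads in the knockout libraries. With at least 2 CPM in control libraries and at most 3 counts over the 3 knockout libraries there were 29 genes, 18 of them with 0 counts, against 1 gene with the reverse pattern. The following were picked after their values were seen. Fam111a, which encodes a protease that acts in DNA replication, had a mean of 25.9 CPM in controls and 0 counts in knockout libraries, at least 500-fold lower at a floor of 3 counts over the group. Bspry, Ube2ql1 and Rasef were at least 228-fold, 223-fold and 200-fold lower. Zfp518b, a zinc finger gene, had 1178 counts in the controls and 2 in knockout libraries, a ratio of 545 with an exact 95% interval of 151 to 4510 that covers counting error only.

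Some neighbouring genes were both low or at 0 in knockout libraries. On chromosome 9, Casp1, the caspase that processes interleukin-1 beta, had 6.21, 6.75 and 7.32 CPM in controls and 0, 0.24 and 0 CPM in knockout libraries. Casp4, an inflammatory caspase next to it, had 1.03, 2.50 and 1.99 CPM against 0.151, 0 and 0 CPM, and Casp12 lies in the same cluster. On chromosome 1, Sp140, a nuclear body protein of immune cells, had 3.81, 4.53 and 3.79 CPM in controls and 0 counts in knockout libraries, and Sp110, of the same family, had 2.26, 2.79 and 1.84 CPM against 0, 0 and 0.0467 CPM.

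The genes whose fold change moved most when knockout replicate 2 was left out were ones with a few reads in that library alone. For Casp1 the log2 fold change was -6.49 with it and -10.14 without it, and in Acot1, an acyl-CoA thioesterase, -7.27 and -10.03. Plekhs1, P2ry6, Dnah2, Tcn2, Serpinb8, Chil1, Rgs20 and Zfp979 behaved alike, with 0 CPM in knockout replicates 1 and 3 and 0.06 to 0.3 CPM in replicate 2. These fitted values depend on a prior count and are not bounds, and the direction was the same with and without the library.

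Ranked by the difference in CPM instead, a quantity that favours abundant and long transcripts, the leading decrease was Fn1, the gene of the matrix glycoprotein fibronectin. It had 1381, 1290 and 1276 CPM in controls and 476, 349 and 488 CPM in knockout libraries (log2 fold change -1.59 ± 0.11 SE, adjusted p = 1.5e-07; without knockout replicate 2 -1.45). Spp1, the secreted integrin ligand osteopontin, had 598, 595 and 557 CPM and 285, 238 and 278 CPM (log2 fold change -1.13 ± 0.072 SE, adjusted p = 8.54e-08). Thbs1, the matricellular protein thrombospondin-1, had 535, 495 and 465 CPM and 234, 105 and 228 CPM (log2 fold change -1.40 ± 0.22 SE, adjusted p = 0.000208; -1.11 without replicate 2, its lowest library). Cavin1, the main caveolar coat protein, had 487, 483 and 509 CPM and 214, 296 and 222 CPM (log2 fold change -1.01 ± 0.10 SE, adjusted p = 7.27e-06). All 4 fell without overlap.

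The other genes in this ranking fell by smaller factors: Actg1, gamma-actin (-0.47), Ddx5, an RNA helicase (-0.58), Npm1, nucleophosmin (-0.25), Fasn, fatty acid synthase (-0.40), H3f3b, histone H3.3 (-0.17), and Ctnnb1, beta-catenin (-0.43), as log2 fold changes. The first 5 of these lie on chromosome 11, and relative to the median of that chromosome Npm1 changed to 0.12 (adjusted p = 0.249) and H3f3b to 0.20 (adjusted p = 0.0123).

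The leading increases in CPM were Lgals1, the secreted lectin galectin-1, with 3293, 3327 and 3567 CPM in controls and 5647, 9412 and 5865 CPM in knockout libraries (log2 fold change 1.04 ± 0.15 SE, adjusted p = 0.000118; 0.76 without replicate 2), and Fth1, the ferritin heavy chain that stores iron, with 2234, 2228 and 2271 CPM and 4977, 6355 and 4769 CPM (log2 fold change 1.26 ± 0.093 SE, adjusted p = 3.5e-07). For both, knockout replicate 2 was the highest library. Ftl1, the ferritin light chain, rose along with Fth1 (0.90). Msn, which encodes moesin, a linker of actin to the membrane, had 1444, 1418 and 1432 CPM and 2997, 1958 and 2942 CPM, with replicate 2 the lowest of the knockout libraries (log2 fold change 0.88 ± 0.12 SE, adjusted p = 9.77e-05). Actb, beta-actin (0.47), Pabpc1, a poly(A)-binding protein (0.46), Hsp90ab1, a chaperone (0.38, or 0.23 without replicate 2), S100a6, a calcium-binding protein (0.56), and Rplp0 (0.63) and Rpsa (0.52), of the ribosome, completed the 10.

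The change also followed the chromosome a gene lies on. The median log2 fold change was -0.369 over 989 tested genes of chromosome 11 and -0.401 over 364 genes of chromosome 16, against -0.00923 over all genes tested. On chromosome 11, 564 genes (57.0%) were lower and 33 (3.34%) higher, and on chromosome 16, 213 (58.5%) were lower and 14 (3.85%) higher. Chromosome 17 had the largest positive median, 0.314 over 621 genes, with 295 (47.5%) higher and 71 (11.4%) lower. Positive medians were also found for chromosomes 5 (0.231), 7 (0.212), 19 (0.197), 12 (0.178) and 14 (0.166), and negative ones for chromosomes 9 (-0.149), 3 (-0.142) and 1 (-0.129). Coordinates came from GENCODE vM21 models, which placed 11959 of the tested genes.

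These shifts appeared in each knockout library. Against the mean of the controls, the chromosome 11 median was -0.407, -0.276 and -0.391 in knockout libraries 1 to 3, that of chromosome 16 -0.373, -0.454 and -0.351, and that of chromosome 17 0.271, 0.42 and 0.268. No control library moved any chromosome median by more than 0.0139. Without knockout replicate 2 the medians of chromosomes 11, 16 and 17 were -0.404, -0.374 and 0.27, and between the genotypes with FGF -0.406, -0.374 and 0.248. No DNA measurement was used here.

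With each gene set relative to the median of its chromosome, an alternative added after the data were seen, there were 2197 higher and 2241 lower genes, together 36.7% of those tested. Of the called genes, 3647 kept their call and direction, 9 were called in the opposite direction and 1877 lost their call, and 782 others gained one. Of 1193 called genes that changed at least 2-fold, 1152 stayed called in the same direction. That was largely set by size, since the largest chromosome median taken off was -0.401 (chromosome 16).

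**Figure D3:**
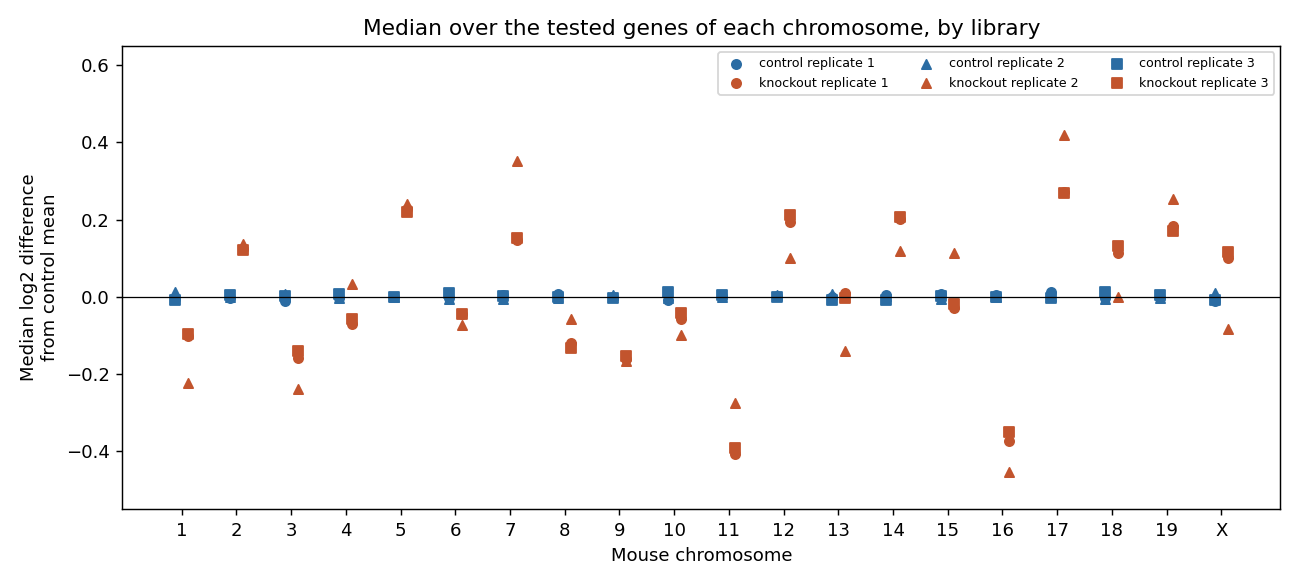
Median log2 difference from the mean of the controls over the tested genes of each chromosome, with 1 point per library (circle, triangle and square for replicates 1, 2 and 3; blue control, orange knockout). Control points lie at 0, and knockout points lie at -0.454 to -0.276 for chromosomes 11 and 16 and at 0.27 to 0.42 for chromosome 17.

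Gene lists by function are described by their counts and medians. Against the shares of all genes, 22.5% higher and 23.3% lower, and a median log2 fold change of -0.00923 (-0.011 for the same genes without knockout replicate 2), a list stands out only as far as its own counts show. A bare number in parentheses after a gene is its log2 fold change. Of 253 genes chosen for description by a fixed rule, 2 (Elk4 and Cd68) lost their call without knockout replicate 2, 12 gained one in the same direction, and 11 changed sign, all 11 of them not called with all libraries.

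**Figure D4:**
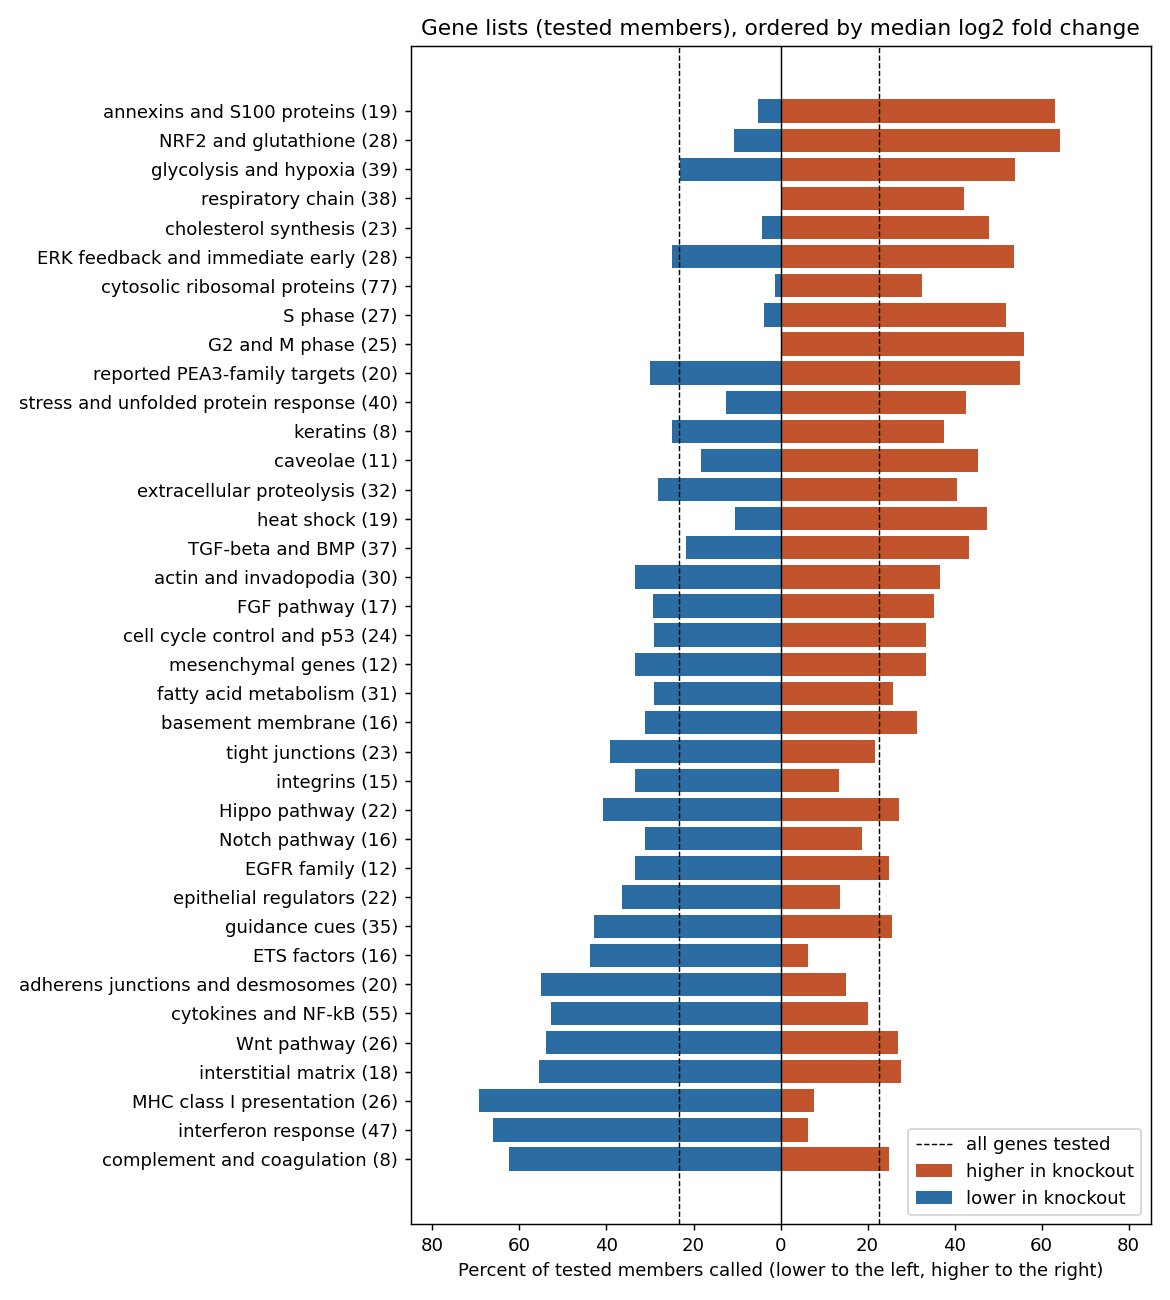
Percent of the tested members of each list that were called lower (blue, to the left) or higher (orange, to the right), with the number of tested members in parentheses and dashed lines at the shares of all genes tested. The MHC class I and interferon lists reach furthest to the left, and the NRF2 and annexin lists furthest to the right.

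ETS factors were more often lower than higher. Of 16 tested members 1 was higher and 7 lower (median -0.238); without knockout replicate 2 the counts were 2 and 7. Etv5, the closest relative of Etv4, had 62.5, 60.5 and 61.8 CPM in controls and 35.8, 30.6 and 32.4 CPM in knockout libraries (log2 fold change -0.90 ± 0.074 SE, adjusted p = 8.99e-07; -0.85 without replicate 2), without overlap. Etv1, the third PEA3 member, had 105, 109.5 and 106 CPM and 114, 76.1 and 116 CPM, where only replicate 2 was below the controls, and its log2 fold change was -0.066 ± 0.13 (SE, adjusted p = 0.701), or 0.11 without that library. Ets2 (-0.75) and Etv6, a repressor (-0.67), fell with all libraries and without replicate 2, and Elf3, an epithelial ETS factor (0.49, or 0.32 without that library), rose. Elk4 (-0.24), Etv3 (-0.50) and Gabpa (-0.43) were also lower; without replicate 2 Etv3 stood at -0.30 and Gabpa at -0.20, and Elk4 missed the threshold (adjusted p = 0.0507). Ets1, Elf1, Elf2, Elf4, Elk1, Elk3 and Erf did not pass the test, with log2 fold changes from -0.36 to 0.33; without replicate 2 Elk1 was lower (-0.19, adjusted p = 0.0289) and Elk3 higher (0.18, adjusted p = 0.00418). Etv5 and Ets2 lie on chromosome 16; relative to chromosome medians the list counts were 2 and 4, and they were 1 and 4 without control replicate 1 or with the 6 compared libraries fitted alone.

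Of 20 tested genes that have been reported as targets of PEA3 factors, 11 were higher and 6 lower (median 0.235), and the counts were the same without knockout replicate 2. Mmp3, the metalloproteinase stromelysin-1, had 203, 199.9 and 202 CPM in controls and 492, 447 and 487 CPM in knockout libraries (log2 fold change 1.24 ± 0.06 SE, adjusted p = 7.74e-09). Plau, the urokinase plasminogen activator, had 393, 380.4 and 383 CPM and 781, 779 and 764 CPM (log2 fold change 1.01 ± 0.053 SE, adjusted p = 1.51e-08), and its receptor gene Plaur also rose (0.60). In these 3 genes all knockout libraries were above all controls, while Spp1, on the same list, fell. The higher count was 7 without control replicate 2 and 6 with the compared libraries fitted alone. Relative to chromosome medians 8 were higher and 5 lower, with a median of 0.033.

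In the FGF pathway, genes moved in both directions. Of 17 tested members 6 were higher and 5 lower (median 0.0549), and 7 and 5 without knockout replicate 2. Among the receptors, Fgfr1 had 13.8, 12.7 and 10.3 CPM in controls and 1.51, 1.56 and 1.64 CPM in knockout libraries (log2 fold change -2.96 ± 0.18 SE, adjusted p = 7.05e-08), a fall in all 3 libraries. Fgfr3 was lower (-0.48), and Fgfrl1, a receptor without a kinase domain, higher (0.66). Fgfr2 had 140.3, 132 and 129 CPM and 107, 27.5 and 117 CPM and did not pass the test (-0.68 ± 0.37 SE, adjusted p = 0.153), with replicate 2 far below the others; without it the log2 fold change was -0.26 (adjusted p = 0.117). Gpc4, a heparan sulfate co-receptor, had 5.12, 5.57 and 6.08 CPM against 1 count in all knockout libraries. The syndecans Sdc1 (0.49) and Sdc4 (-0.46) moved in opposite directions. Flrt3, a membrane partner of FGF receptors, had 65.6, 63.6 and 66.5 CPM and 142, 105 and 149 CPM (log2 fold change 1.01 ± 0.11 SE, adjusted p = 8.22e-06), and Fgf11, an intracellular family member, was higher (0.54). Gpc1, Sdc2 and Frs2 did not pass the test (0.055, 0.073 and -0.19); Sdc2 was higher without replicate 2 (0.22, adjusted p = 0.00297).

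Feedback inhibitors and immediate early genes of ERK signalling were more often higher: of 28 tested members 15 were higher and 7 lower (median 0.265), and 16 and 7 without knockout replicate 2. Dusp1, a phosphatase of MAP kinases, had 207, 198 and 214 CPM in controls and 578, 591 and 558 CPM in knockout libraries (log2 fold change 1.48 ± 0.067 SE, adjusted p = 4.5e-09). Dusp5, a phosphatase of nuclear ERK, had 107, 109.6 and 122 CPM and 312, 298 and 279 CPM (log2 fold change 1.39 ± 0.08 SE, adjusted p = 3.24e-08). Egr1, an immediate early transcription factor, had 471, 463 and 474 CPM and 1135, 848 and 1129 CPM (log2 fold change 1.14 ± 0.10 SE, adjusted p = 1.06e-06), so that its lowest knockout library was still above every control. Spry1, a Sprouty inhibitor of receptor tyrosine kinase signalling, was lower (-0.78).

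In the EGF receptor family, 3 of 12 tested genes were higher and 4 lower (median -0.19), and 3 and 5 of 13 without knockout replicate 2. The 3 higher genes were ligands, and receptors were lower or not called. Areg, the ligand amphiregulin, had 95.4, 104 and 97.9 CPM in controls and 333, 390.2 and 336 CPM in knockout libraries (log2 fold change 1.83 ± 0.086 SE, adjusted p = 6.18e-09), and Hbegf rose as well (0.56). The receptors Erbb3 (-0.67) and Erbb2 (-0.42) fell. Erbb2 lies on chromosome 11, whose median log2 fold change was -0.369. Relative to chromosome medians 3 of the 12 were higher and 3 lower.

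Caveolar genes changed unevenly. Of 11 tested members 5 were higher and 2 lower (median 0.188), and 6 and 2 without knockout replicate 2. Against the near loss of Cav1, its partner Cav2 had 110.2, 106 and 113 CPM in controls and 125, 97.1 and 134 CPM in knockout libraries and did not pass the test (0.12 ± 0.11 SE, adjusted p = 0.414); without replicate 2 it was higher (0.24, adjusted p = 0.00539). Cavin1 fell and Cavin2 rose, as given above, and Cavin3 rose by less (0.40). Of the ATPases at the neck of caveolae, Ehd4 had 212, 216 and 216 CPM and 400.5, 425 and 409 CPM (log2 fold change 0.94 ± 0.057 SE, adjusted p = 5.85e-08) and Ehd1 was higher (0.72), while Ehd2 was not called (0.19). Pacsin3, which bends membranes, was higher (0.57) and Pacsin2 was not called (0.059).

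Genes of epithelial junctions were more often lower, with exceptions among both claudins and polarity proteins. Of 23 tight junction genes 5 were higher and 9 lower (median -0.151), the same counts as without knockout replicate 2. Beside Cldn7, Cldn3 had 57.4, 52.3 and 54.3 CPM in controls and 31, 45.7 and 33.8 CPM in knockout libraries (log2 fold change -0.57 ± 0.12 SE, adjusted p = 0.00203) and Cldn12 was lower (-0.35). Cldn4 instead had 234, 232 and 242 CPM and 379.6, 464 and 365 CPM (log2 fold change 0.77 ± 0.085 SE, adjusted p = 1.22e-05), and Cldn23 did not pass the test (0.037). The polarity gene Crb3 had 23, 22.3 and 21.4 CPM and 48, 58.6 and 49.9 CPM (log2 fold change 1.23 ± 0.092 SE, adjusted p = 3.89e-07), and Tjp3, the scaffold ZO-3, had 2.82, 2.5 and 3.24 CPM and 0.101, 0.36 and 0.42 CPM.

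Of 20 genes of adherens junctions and desmosomes 3 were higher and 11 lower (median -0.308), and 5 and 12 without knockout replicate 2. Cdh1, E-cadherin, had 414, 403 and 392 CPM in controls and 313, 255 and 310.4 CPM in knockout libraries (log2 fold change -0.46 ± 0.077 SE, adjusted p = 0.000342), and Epcam fell by a like amount (-0.43). Dsc2, a desmosomal cadherin, had 8.27, 10 and 9.71 CPM and 0.707, 0.6 and 1.03 CPM (log2 fold change -3.55 ± 0.20 SE, adjusted p = 2.9e-08). Nectin3 was lower (-0.96), and Nectin1 (0.45) and the desmosomal plaque gene Pkp3 (0.73) were higher. Of 22 epithelial regulators 3 were higher and 8 lower (median -0.196), or 3 and 9 without that library, with Ap1m2, an epithelial sorting adaptor, at 30.9, 28.3 and 29.4 CPM and 3.99, 6.05 and 5.18 CPM (log2 fold change -2.55 ± 0.14 SE, adjusted p = 2.18e-08) and Klf5, a Krüppel-like factor, higher (0.38).

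Mesenchymal genes and keratins did not move as groups. Of 12 mesenchymal genes 4 were higher and 4 lower (median -0.0099), and 5 and 5 without knockout replicate 2. Zeb1, a repressor of E-cadherin, was low in controls (0.564, 1.09 and 0.747 CPM) and had 0 counts in knockout libraries. S100a4 (1.08) and the receptor tyrosine kinase Axl (0.31) were higher, and Tead2 was lower (-0.46). The list had 2 higher without control replicate 2, and 1 higher and 5 lower relative to chromosome medians. Of 8 keratins 3 were higher and 2 lower, and 3 and 3 without knockout replicate 2. Krt19 had 48.4, 53.2 and 50.1 CPM in controls and 105, 188 and 109.8 CPM in knockout libraries (log2 fold change 1.41 ± 0.18 SE, adjusted p = 3.49e-05; 1.09 without replicate 2), and Krt14, a basal keratin, had 61.2, 62 and 66.2 CPM and 24.8, 40.6 and 29.9 CPM (log2 fold change -0.99 ± 0.13 SE, adjusted p = 6.09e-05). Krt80 (0.58) and Krt16 (0.84, or 0.49 without replicate 2) were higher too. Krt7, Krt8 and Krt18, keratins of simple epithelium, did not pass the test, and Krt8 had 1634, 1663 and 1746 CPM and 1525, 2305 and 1514 CPM, above the controls only in replicate 2; without that library Krt8 was lower (-0.15, adjusted p = 0.0197). The median of the keratins was 0.207 with that library and -0.00437 without it, and 1 keratin rather than 2 was lower when any of the other 5 libraries was left out.

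Integrins, the receptors for matrix, were lower in 5 and higher in 2 of 15 tested genes (median -0.157), and lower in 7 and higher in 4 without knockout replicate 2. Itga6, the alpha subunit of laminin receptors, had 321, 302 and 301 CPM in controls and 804, 457 and 788 CPM in knockout libraries (log2 fold change 1.15 ± 0.16 SE, adjusted p = 8.24e-05; 1.37 without replicate 2), and Itga5, of the fibronectin receptor, was higher (0.48). Itga7 had 19.8, 19 and 18.8 CPM and 4.49, 6.95 and 6.77 CPM (log2 fold change -1.66 ± 0.16 SE, adjusted p = 5.2e-06). Itgb3 (-2.61), Itgb6 (-2.27), Itgb5 (-0.52) and Itga1 (-1.10) fell as well. For the collagen receptor subunits Itga2 and Itgb1 the log2 fold changes were 0.20 and -0.049, neither called; Itga2 was higher without replicate 2 (0.41, adjusted p = 2e-05). Itgav, with 258, 100.5 and 267 CPM in knockout libraries against 219, 216 and 208 CPM in controls, was higher without replicate 2 (0.29, adjusted p = 0.000636) and not called with it. Itga3 and Itgb4, both on chromosome 11, were not called (-0.16 and -0.13). Without replicate 2 both were lower (-0.24 and -0.20, adjusted p = 0.000126 and 0.00119), and relative to the chromosome median both were higher (0.21 and 0.24, adjusted p = 0.0351 and 0.0125). The list as a whole had 4 higher and 4 lower on that scale.

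Of 16 basement membrane genes 5 were higher and 5 lower (median -0.0935), and 6 and 8 without knockout replicate 2. Lama3, a laminin alpha chain, had 398, 379.7 and 364 CPM in controls and 778, 697 and 786 CPM in knockout libraries (log2 fold change 0.99 ± 0.07 SE, adjusted p = 2.19e-07), and the beta chain gene Lamb3 rose by 1.08 on the log2 scale. Lamb1 (-0.21) and Lamc1 (-0.31) were lower, and Lama5 and Lamb2 did not pass the test (-0.07 and -0.19); Lamb2 was lower without replicate 2 (-0.28, adjusted p = 0.000362). Of the collagen IV genes on the X chromosome, Col4a5 had 30.8, 26.8 and 24.3 CPM and 4.59, 4.38 and 6.87 CPM (log2 fold change -2.36 ± 0.15 SE, adjusted p = 1.03e-07), and Col4a6 had 2.44, 3.07 and 2.34 CPM and 0 counts, at least 50.6-fold lower. The count of lower genes was 3 without control replicate 1.

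Interstitial matrix genes were lower in 10 of 18 and higher in 5 (median -0.59), and 11 and 5 without knockout replicate 2. Fn1 and Spp1 fell and Tnxb rose, as above. Loxl3, a lysyl oxidase that crosslinks collagen, had 39.1, 36.9 and 41.6 CPM in controls and 8.13, 10.6 and 9.9 CPM in knockout libraries (log2 fold change -2.04 ± 0.11 SE, adjusted p = 1.49e-08), with every knockout library under 11 CPM.

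Genes of extracellular proteolysis, a list that also holds inhibitors, were higher in 13 and lower in 9 of 32 (median 0.164), and 18 and 10 without knockout replicate 2. Of the 7 inhibitors 3 were higher and 4 lower (median -1.14). Of the 20 metalloproteinases 7 were higher and 4 lower, and of the other 5 genes 3 and 1. Besides Mmp3 and Mmp1b, Mmp14, the membrane-bound collagenase MT1-MMP, had 287, 268 and 265 CPM in controls and 386, 441 and 379 CPM in knockout libraries (log2 fold change 0.56 ± 0.071 SE, adjusted p = 4.27e-05). Mmp10 (0.52) and Mmp15 (0.86) were higher, whereas Mmp9, a gelatinase, had 123, 127 and 118 CPM and 77.5, 89.3 and 74.8 CPM (log2 fold change -0.61 ± 0.079 SE, adjusted p = 5.03e-05) and Mmp13 was lower (-0.65). Among membrane-bound ADAM proteases, Adam8 had 22.1, 18 and 18.7 CPM and 57.3, 58.6 and 54.6 CPM (log2 fold change 1.54 ± 0.091 SE, adjusted p = 4.54e-08). Adam9, Adam10, Adam12, Adam17 and Adam19 were not called with all libraries and were higher without replicate 2, with log2 fold changes of 0.48, 0.15, 0.54, 0.23 and 0.33. Mmp11 and Adam15 were not called in either fit. The secreted proteases Adamts1 (0.64) and Adamts4 (-2.62) moved in opposite directions. Of the 2 plasminogen activators, Plau rose and Plat fell, from 31, 29.2 and 29.1 CPM to 6.92, 6.89 and 6.91 CPM (log2 fold change -2.11 ± 0.094 SE, adjusted p = 4.25e-09).

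Of 30 genes of actin and invadopodia 11 were higher and 10 lower (median 0.0562), and 12 and 11 without knockout replicate 2. Gsn, the actin-severing protein gelsolin, had 247, 249 and 257 CPM in controls and 514, 559 and 484 CPM in knockout libraries (log2 fold change 1.05 ± 0.067 SE, adjusted p = 9.14e-08), and Ezr, ezrin, rose with its relative Msn (0.78). Lcp1, the actin bundler L-plastin (-0.98), and Sh3pxd2b, the invadopodium scaffold TKS4 (-1.04), fell. Relative to chromosome medians 7 were higher and 8 lower.

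**Figure D5:**
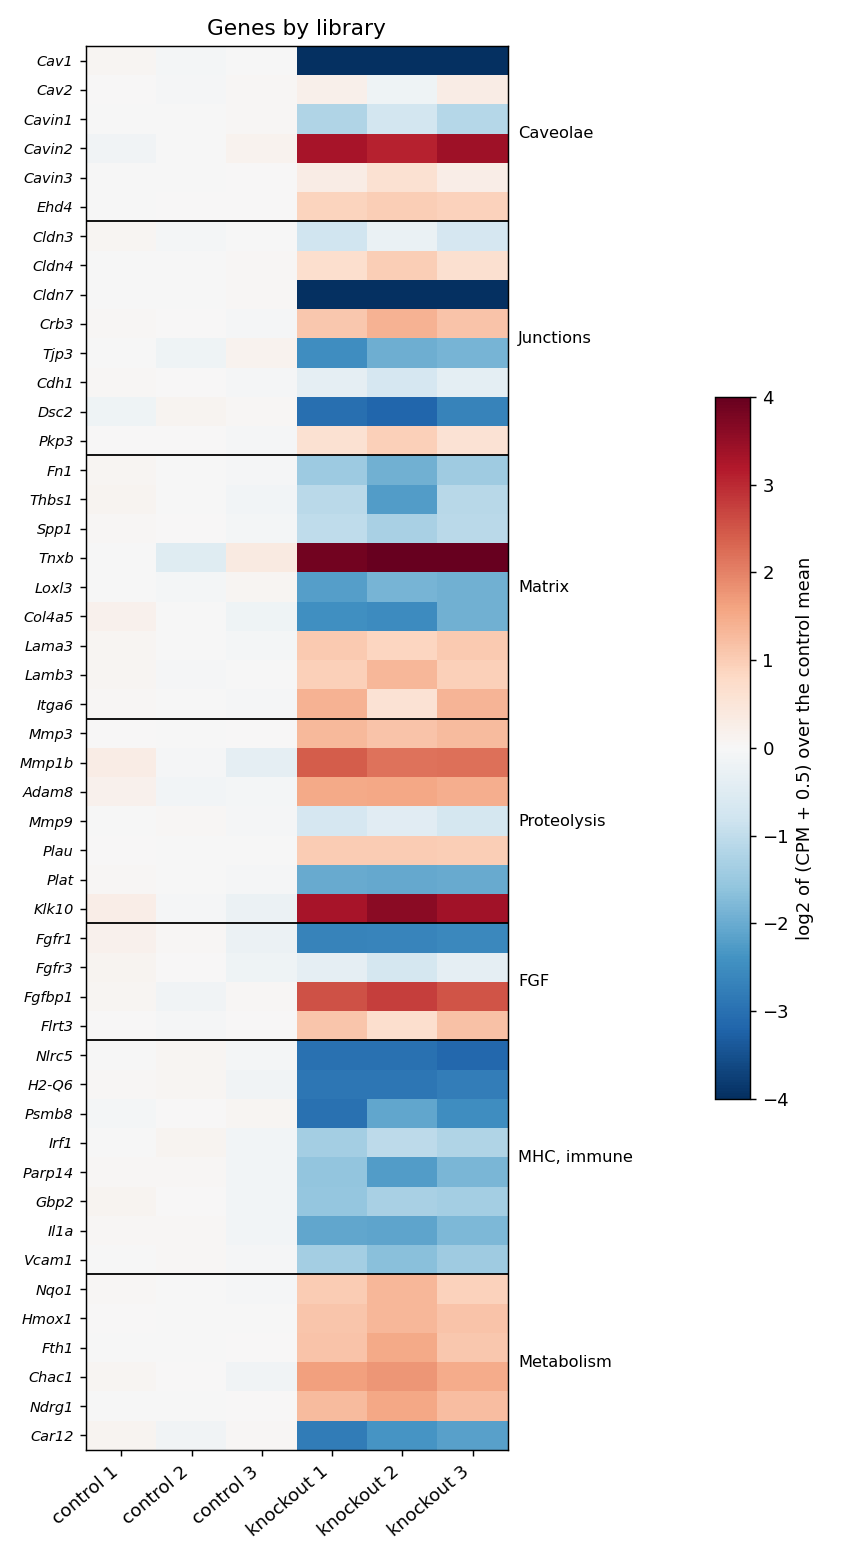
Log2 of (CPM + 0.5) over the same quantity for the control mean, for genes described in the text, in rows grouped by function, over the 6 libraries in columns; the colour scale ends at -4 and 4, and values beyond are drawn in the end colours. Control columns are near 0, and rows are red (higher) or blue (lower). The genes shown are a selection from longer lists. The MHC and immune rows selected are all blue, but 2 MHC class I, 3 interferon and 11 cytokine and NF-kB genes were called higher.

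Among TGF-beta and BMP genes 16 of 37 were higher and 8 lower (median 0.0938), and 19 and 9 without knockout replicate 2. Ltbp4, which holds latent TGF-beta in the matrix, had 92.1, 84.6 and 85.8 CPM in controls and 228, 247 and 226 CPM in knockout libraries (log2 fold change 1.42 ± 0.07 SE, adjusted p = 8.56e-09). Id2, an inhibitor of bHLH factors, rose (0.52), and Inhbb, an activin subunit, fell (-2.28). Relative to chromosome medians 11 were higher and 8 lower.

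Wnt genes were lower in 14 of 26 and higher in 7 (median -0.518), and 14 and 6 without knockout replicate 2. Sfrp1, a secreted antagonist, had 45.3, 44.6 and 48.2 CPM in controls and 6.21, 6 and 7.75 CPM in knockout libraries (log2 fold change -2.78 ± 0.12 SE, adjusted p = 2.74e-09). Notum, which inactivates Wnt ligands, had 24.6, 25.4 and 24.6 CPM and 3.48, 2.94 and 2.62 CPM (log2 fold change -3.04 ± 0.14 SE, adjusted p = 6.18e-09), and the ligand Wnt10b had 8.7, 9.92 and 9.56 CPM and 0.707, 0.719 and 0.654 CPM (log2 fold change -3.75 ± 0.19 SE, adjusted p = 1.01e-08). Lgr6, a receptor for R-spondins, fell too (-1.50). A ligand, a receptor and 2 antagonists were therefore all lower in each knockout library. Relative to chromosome medians the counts were 10 lower and 4 higher.

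Of 16 Notch genes 3 were higher and 5 lower (median -0.184), and 4 and 6 without knockout replicate 2, or 5 and 5 relative to chromosome medians. The ligands split: Jag1 had 107, 106 and 102 CPM in controls and 36.5, 17.6 and 38.5 CPM in knockout libraries (log2 fold change -1.76 ± 0.20 SE, adjusted p = 1.64e-05; -1.49 without replicate 2), while Jag2 had 21.2, 20.9 and 16.5 CPM and 42.8, 45.6 and 42.2 CPM (log2 fold change 1.15 ± 0.10 SE, adjusted p = 1.93e-06) and Dll4 was higher (0.65). The receptor Notch3 fell (-2.10). Of 22 Hippo genes 6 were higher and 9 lower (median -0.174), and 9 and 11 without replicate 2. Cyr61, a target of YAP, had 253, 238 and 243 CPM and 578, 715 and 571 CPM (log2 fold change 1.34 ± 0.092 SE, adjusted p = 1.66e-07), but Ankrd1, another target, fell (-0.47), as did the YAP-binding proteins Amot (-1.72) and Amotl2 (-0.70). Of 35 guidance cue genes 9 were higher and 15 lower (median -0.21), and 9 and 17 of 36 without that replicate. Sema4b was higher (1.03), and Sema3b (-4.50), Sema6a (-3.47) and Robo1 (-1.96) were lower. With the 6 libraries fitted alone, 4 guidance genes were higher.

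The lists with the most one-sided decreases belonged to antigen presentation and interferon responses. Of 26 genes of MHC class I presentation 18 were lower and 2 higher (median -0.592), and 21 and 2 without knockout replicate 2. Nlrc5, the activator of MHC class I transcription, had 22.3, 23.7 and 21.2 CPM in controls and 2.42, 2.4 and 2.1 CPM in knockout libraries (log2 fold change -3.28 ± 0.14 SE, adjusted p = 3.66e-09). Psmb8, an immunoproteasome subunit, had 29.9, 31.6 and 32.9 CPM and 3.53, 7.13 and 5.23 CPM (log2 fold change -2.58 ± 0.20 SE, adjusted p = 5.08e-07). The class I genes H2-Q6 (-3.0) and H2-Q7 (-3.04) fell, and since these are near-identical copies their separate values are uncertain. Relative to chromosome medians the counts were also 18 and 2, and most of these genes lie on chromosome 17, whose median was positive.

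Of 47 interferon response genes 31 were lower and 3 higher (median -0.746), and 33 and 3 without knockout replicate 2. Irf1, a transcription factor of the response, had 58.2, 62.9 and 53.8 CPM in controls and 22.3, 28.1 and 24.9 CPM in knockout libraries (log2 fold change -1.22 ± 0.092 SE, adjusted p = 4.28e-07). Jak2, a kinase of the interferon gamma receptor, had 171, 183 and 179 CPM and 82.7, 61.9 and 79.8 CPM (log2 fold change -1.25 ± 0.10 SE, adjusted p = 5.45e-07). The effectors Parp14 (-1.92) and Gbp2 (-1.48) fell as well. For Jak2, knockout replicate 2 was the lowest library and for Irf1 the highest of its group, and neither overlapped the controls. Relative to chromosome medians 28 were lower and 2 higher.

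Cytokines, their receptors and NF-kB genes were lower in 29 of 55 and higher in 11 (median -0.349), and 31 and 10 without knockout replicate 2. The higher count was 7 with the compared libraries fitted alone and 5 relative to chromosome medians. Il1a, the cytokine interleukin-1 alpha, had 34.6, 34.2 and 31 CPM in controls and 7.47, 7.31 and 9.3 CPM in knockout libraries (log2 fold change -2.05 ± 0.11 SE, adjusted p = 1.36e-08), and Vcam1, an adhesion molecule for leukocytes, had 22.1, 22.7 and 21.5 CPM and 8.23, 6.59 and 7.99 CPM (log2 fold change -1.53 ± 0.14 SE, adjusted p = 2.17e-06). Il18 (-2.83) and Tnf (-3.61), at lower levels, fell too. Of the 25 tested ligands 16 were lower and 2 higher. Of 8 complement and coagulation genes 5 were lower and 2 higher, with or without replicate 2. Clu, the complement inhibitor clusterin, had 253, 231 and 237 CPM and 55, 80.8 and 58.4 CPM (log2 fold change -1.89 ± 0.12 SE, adjusted p = 6.71e-08), and C3, the central complement protein, had 132, 132 and 132 CPM and 69.2, 76.8 and 61.7 CPM (log2 fold change -0.93 ± 0.083 SE, adjusted p = 2.1e-06). Procr, the protein C receptor, rose (0.99). Pros1, protein S, was low in controls and fell (-3.47).

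Genes of the NRF2 and glutathione system were among the most one-sided increases. Of 28 tested members 18 were higher and 3 lower (median 0.355), and 17 and 3 without knockout replicate 2, with a median of 0.197. Nqo1, a quinone reductase, had 71, 67.9 and 67.2 CPM in controls and 139, 174 and 130.3 CPM in knockout libraries (log2 fold change 1.10 ± 0.10 SE, adjusted p = 2.06e-06). Hmox1, heme oxygenase-1, had 24.8, 24.1 and 23.9 CPM and 53, 61.6 and 54.4 CPM (log2 fold change 1.21 ± 0.095 SE, adjusted p = 5.45e-07). Gsta1, a glutathione transferase, rose from 0.564, 0.567 and 0.448 CPM to 4.29, 6.05 and 3.92 CPM, and Fth1 belongs to the same list. Knockout replicate 2 was the highest library for each of these 4 genes, and the other 2 knockout libraries were also above all controls.

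Of 40 genes of the unfolded protein and integrated stress responses 17 were higher and 5 lower (median 0.228), and 20 and 7 of 41 without knockout replicate 2. Chac1, a glutathione-degrading target of ATF4, had 6.35, 6.04 and 5.38 CPM in controls and 19.6, 21.2 and 17.5 CPM in knockout libraries (log2 fold change 1.71 ± 0.12 SE, adjusted p = 2.25e-07), and Atf5 (1.78) and the chaperone Hspa5, known as BiP (0.49), were higher. Nupr1, a stress-induced nuclear protein, was lower (-1.13). Of 19 heat shock genes 9 were higher and 2 lower (median 0.144), and 12 and 2 without that library. Hsph1 had 197, 207 and 195 CPM and 453, 426 and 450.3 CPM (log2 fold change 1.15 ± 0.058 SE, adjusted p = 1.01e-08), and Hspb8 (0.94), Hspa8 (0.57) and Hsp90aa1 (0.38) rose by less.

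In energy metabolism, 21 of 39 glycolysis and hypoxia genes were higher and 9 lower (median 0.333), and 23 and 9 without knockout replicate 2. Ndrg1, a hypoxia-induced gene, had 226, 227 and 231 CPM in controls and 549, 674 and 538 CPM in knockout libraries (log2 fold change 1.36 ± 0.084 SE, adjusted p = 5.85e-08), and Pdk1, which restrains pyruvate oxidation (0.95), and Egln3, an oxygen sensor (0.92), were higher. Car12, a membrane carbonic anhydrase, instead had 19.9, 16.7 and 19.1 CPM and 2.27, 3.18 and 3.69 CPM (log2 fold change -2.60 ± 0.15 SE, adjusted p = 4.41e-08). Of 38 respiratory chain genes 16 were higher and 0 lower (median 0.306); without replicate 2, 17 were higher and 3 lower (median 0.175), and without control replicate 2 the count of higher genes was 10. The mitochondrially encoded mt-Nd1 (0.51) and mt-Nd2 (0.44) and the nuclear Ndufv2 (0.73) and Cycs, cytochrome c (0.47), were among them.

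Cholesterol synthesis genes were higher in 11 and lower in 1 of 23 (median 0.278), and 14 and 2 without knockout replicate 2. Fdft1, squalene synthase, had 245, 251 and 247 CPM in controls and 411, 519 and 393 CPM in knockout libraries (log2 fold change 0.83 ± 0.091 SE, adjusted p = 1.16e-05), and Cyp51 (0.55) and Ebp (0.72) rose. With the 6 libraries fitted alone 7 were higher; without knockout replicate 1 or 3, 2 were lower. Of 31 fatty acid genes 8 were higher and 9 lower (median -0.0491), and 9 and 10 without knockout replicate 2. Pla2g4e, a phospholipase, had 0.423, 0.283 and 0.149 CPM and 6.36, 5.7 and 8.22 CPM (log2 fold change 4.53 ± 0.27 SE, adjusted p = 4.96e-08), and Ppard, a nuclear receptor for fatty acids (1.13), and Acsl5 (0.63) were higher, whereas Pla2g7 was lower (-0.89).

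Genes of the cell cycle machinery were more often higher than lower, by small factors. Of 27 S phase genes 14 were higher and 1 lower (median 0.254), and of 25 genes of G2 and M phase 14 were higher and 0 lower (median 0.248); without knockout replicate 2 the counts were 14 and 3, and 17 and 2. Rrm2, a subunit of ribonucleotide reductase, had 185, 175 and 179 CPM in controls and 298, 283 and 294 CPM in knockout libraries (log2 fold change 0.70 ± 0.058 SE, adjusted p = 1.03e-06), and Uhrf1 (0.57), Pcna (0.50) and E2f1 (0.60) rose likewise. Cenpa, the centromeric histone, had 149.5, 153 and 152 CPM and 234, 262 and 224 CPM (log2 fold change 0.66 ± 0.072 SE, adjusted p = 1.05e-05), and Prc1 (0.57), Tpx2 (0.52) and Nusap1 (0.44), all of the mitotic spindle, were higher. Of 24 cell cycle control and p53 genes 8 were higher and 7 lower, with or without knockout replicate 2, among them the inhibitors Cdkn2c (0.46) and Cdkn1a (0.42), higher, and Trp53, the gene of p53 (-0.46), and Trp53inp1 (-1.39), lower. That list had 5 higher without control replicate 1, 4 without control replicate 2, and 4 higher and 3 lower relative to chromosome medians. Trp53 lies on chromosome 11, whose median log2 fold change was -0.369.

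Annexins and S100 proteins, which bind calcium and membranes, were higher in 12 and lower in 1 of 19 (median 0.468), and 11 and 1 without knockout replicate 2 (median 0.23). Anxa8 had 9.82, 7.75 and 9.56 CPM in controls and 75.1, 98.6 and 73.5 CPM in knockout libraries, and S100a4, Anxa11 (0.71) and Anxa7 (0.60) rose by less. Cytosolic ribosomal protein genes moved with the library that stood apart. Of 77 members 25 were higher and 1 lower with a median of 0.261; without knockout replicate 2, 21 were higher and 14 lower with a median of 0.0682, and replicate 2 deviated from the other knockout libraries by a median of 0.5 over these genes. Rps2 had 305, 316 and 358 CPM and 533, 838 and 563 CPM (log2 fold change 0.98 ± 0.14 SE, adjusted p = 0.000111; 0.75 without it), and Rpl13a was higher as well (0.71). The higher count was 43 without knockout replicate 1, 11 without control replicate 1, 12 without control replicate 2 and 10 with the compared libraries fitted alone. Set against chromosome medians, 11 were higher and 0 lower, or 14.3% against 36.7% of all genes tested.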

How the data were processed

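Per the labels' protocols, libraries were made with a stranded polyA kit (TruSeq Stranded mRNA). The authors deposited unnormalized counts of reads for each gene symbol. The submitters' processing notes name STAR 2.7.9a, featureCounts, FastQC 0.11.9 and R 4.1.1, and the builds mm10 and hg38. Annotation, strand setting and handling of reads with several matches are not given in the sources, which makes values of overlapping genes or near-identical copies uncertain.

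Genes were tested in R 4.3.3 with edgeR 4.0.16 (filterByExpr by group, TMM scaling, a mean per group over all 12 libraries, 8 residual degrees of freedom, glmQLFit and glmQLFTest, two-sided). Adjusted p is Benjamini-Hochberg over the 12079 genes tested (12235 without knockout replicate 2), and applies to every gene for which it is printed. The SE is the log2 fold change divided by the square root of F. For a single value, 3 against 3 libraries cannot give an exact permutation p below 0.1. The 6 libraries held 18229429 to 21888600 counts, and 13134 symbols had no count in any of the 12 libraries. The test was checked on simulated data, which held no library set apart from its group and no chromosome shifts.

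Named genes were Etv4, Etv1 and Etv5; the 15 largest changes each way among genes whose log2 CPM averaged 1 or more, called with and without knockout replicate 2 and without overlap; the 10 largest differences in CPM each way; up to 4 members per list by adjusted p, and members of 8 lists with at least 5 CPM; and the 10 genes that moved most without that library. Predicted genes were counted but not named. Some genes chosen by this rule are not reported here, but stay in the counts. The members and lists were chosen with earlier results of these data known. Alternatives were DESeq2 1.42.0, limma-voom (limma 3.58.1), upper-quartile and RLE scaling, other filters, a replicate block, the compared libraries alone, a test against 2-fold, leaving out each library, and, added after the data were seen, values relative to the chromosome median.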

Additional observations from a re-analysis of the deposited data

How the results depend on the processing

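The counts of higher and lower genes stayed within 1.5 times under RLE and upper-quartile scaling, DESeq2, limma-voom, both other filters, chromosome-relative values and each left-out library. The exceptions were 1805 higher genes with the compared libraries fitted alone, and 121 higher and 461 lower in a test against 2-fold, which asks for a larger change. Deviations from the group mean of same-numbered control and knockout libraries had correlations of 0.06, -0.0546 and -0.0585. In the knockout group these deviations are largely set by replicate 2, so the correlations cannot show whether replicate numbers pair the samples. With a replicate block 2775 genes were higher and 2930 lower.

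Of 253 named genes 94 kept direction and side of the threshold in every setting. The test against 2-fold, which asks for a larger change, alone took the call from 128 of the 253. In each other setting at least 222 kept both. Signs that turned were mostly of genes not called. Relative to the chromosome median they were Etv4 0.022, Npm1 0.12, H3f3b 0.20, Ets1 0.0080, Elf2 0.10, Ehd2 -0.024, Itga3 0.21, Itgb1 0.051, Itgb4 0.24, Adam10 0.036 and Adam17 -0.053. With the compared libraries alone and without knockout replicate 2 they were Etv1 0.11, Ets1 0.018, Elf2 0.058, Krt8 -0.14, Krt18 -0.045, Itgav 0.30, Itgb1 0.046, Gpc1 -0.032, Frs2 0.10, Mmp11 -0.14 and Adam10 0.16. Leaving out 1 library at a time gave -0.16 to 0.11 for Etv1, -0.23 to 0.010 for Ets1, -0.10 to 0.051 for Elf2, -0.071 to 0.13 for Cldn23, -0.15 to 0.19 for Krt8, -0.053 to 0.25 for Krt18, -0.25 to 0.29 for Itgav, -0.11 to 0.038 for Itgb1, -0.039 to 0.11 for Gpc1, -0.035 to 0.22 for Sdc2, -0.38 to 0.10 for Frs2, -0.15 to 0.12 for Mmp11 and -0.27 to 0.15 for Adam10. Mmp11 was also -0.0092 with the compared libraries alone, -0.0089 with limma-voom and -0.012 with upper-quartile scaling. The cause was not tested.

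Chromosome medians that moved by more than their spread kept their sign: chromosome 2 at 0.111 with the compared libraries alone or limma-voom and 0.101 with upper-quartile scaling; chromosome 5 at 0.213, 0.241 and 0.205 with the compared libraries alone, these without knockout replicate 2, and upper-quartile scaling; chromosome 6 at -0.089 with the last; and chromosome 9 at -0.141 with the stricter filter, -0.158 alone, -0.165 with limma-voom, -0.156 with the replicate block, -0.175 with upper-quartile scaling and -0.162 to -0.148 over the left-out libraries. Chromosome 15 moved by less than its spread (an SD of 0.0786 over the knockout libraries) but changed sign. Its median was 0.0313 with all libraries and -0.0251 without knockout replicate 2. Genes with few counts in knockout libraries are limited by depth.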
